A study of Mus musculus with 10 samples.

Results

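De novo lipogenesis, the making of fatty acids from carbohydrate, was read here through 10 genes of brown adipose tissue. The enzymes were Acly, Acss2, Acaca, Acacb, Fasn and Me1. Srebf1, Mlxipl, Thrsp and Pnpla3 were grouped here as regulators, although Pnpla3 encodes a lipid-droplet protein. All 22 probe sets that the platform annotation gives to 1 of these genes alone were taken, out of 34945 such probe sets, and the 10 genes stand among 18193 genes in all. Another probe set, annotated to both Acss2 and a neighbouring transcript, was left out. The study set 5 samples labelled SIRT3 KO against 5 labelled WT, from littermates. Sirt3 encodes a deacetylase of mitochondria. The mice were untreated, about 1 year old and on a 129 background, and were read on 10 Affymetrix arrays. The sources used here do not give sex, diet or the deleted part of Sirt3.

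As background, lipogenesis starts from citrate, which leaves mitochondria through the carrier Slc25a1 and is split by ATP citrate lyase (Acly) into cytosolic acetyl-CoA. Acss2 makes the same product from acetate. Acetyl-CoA carboxylases (Acaca in the cytosol, Acacb at the outer mitochondrial membrane) turn it into malonyl-CoA, fatty acid synthase (Fasn) builds palmitate, and malic enzyme (Me1) supplies NADPH. The transcription factors SREBP1 (Srebf1) and ChREBP (Mlxipl) switch the enzyme genes on in response to insulin and sugar. Thrsp (Spot14) is a lipogenic cofactor, and Pnpla3 is a lipid-droplet protein whose gene is a known SREBP1 and ChREBP target in liver. Malonyl-CoA also blocks entry of fatty acids into mitochondria. Brown fat holds both the synthesis and the burning of fatty acids.

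The start-site windows of Fasn, Acly, Acss2 and Me1 are shown because these enzyme genes had their lowest values in the same arrays, WT 4 and WT 5. Acaca shared those arrays, but its listed window held 0 matches of any motif searched here and is not printed. Me1 has another listed window, with 1 CCAAT and 0 GGGCGG, also not printed. Each runs from 250 bases before to 50 bases after a start site annotated by RefSeq on GRCm38.p6, in the gene's own direction, and the start used in brown fat was not measured. Capitals mark CCAAT and GGGCGG on either strand (ATTGG and CCGCCC on the other strand). The windows are chr11:120824498-120824797 on the minus strand for Fasn, chr11:100527951-100528250 on the minus strand for Acly, chr2:155517793-155518092 on the plus strand for Acss2 and chr9:86695865-86696164 on the minus strand for Me1.
Fasn: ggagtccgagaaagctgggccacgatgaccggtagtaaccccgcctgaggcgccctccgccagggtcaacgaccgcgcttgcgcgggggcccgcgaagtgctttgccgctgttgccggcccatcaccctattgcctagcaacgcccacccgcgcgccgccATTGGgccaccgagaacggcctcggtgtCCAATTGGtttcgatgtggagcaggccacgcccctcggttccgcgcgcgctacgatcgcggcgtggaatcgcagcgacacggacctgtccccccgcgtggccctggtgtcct
Acly: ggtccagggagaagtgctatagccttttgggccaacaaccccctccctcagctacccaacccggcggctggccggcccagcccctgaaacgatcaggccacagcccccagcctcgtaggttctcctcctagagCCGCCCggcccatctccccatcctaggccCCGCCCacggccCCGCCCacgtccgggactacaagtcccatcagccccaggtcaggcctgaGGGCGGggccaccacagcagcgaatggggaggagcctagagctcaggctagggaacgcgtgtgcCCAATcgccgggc
Acss2: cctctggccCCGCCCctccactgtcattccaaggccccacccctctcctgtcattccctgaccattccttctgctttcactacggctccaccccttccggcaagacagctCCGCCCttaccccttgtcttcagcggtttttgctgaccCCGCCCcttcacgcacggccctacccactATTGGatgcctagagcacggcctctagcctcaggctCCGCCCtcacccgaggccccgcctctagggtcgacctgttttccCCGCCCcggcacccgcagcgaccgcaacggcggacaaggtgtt
Me1: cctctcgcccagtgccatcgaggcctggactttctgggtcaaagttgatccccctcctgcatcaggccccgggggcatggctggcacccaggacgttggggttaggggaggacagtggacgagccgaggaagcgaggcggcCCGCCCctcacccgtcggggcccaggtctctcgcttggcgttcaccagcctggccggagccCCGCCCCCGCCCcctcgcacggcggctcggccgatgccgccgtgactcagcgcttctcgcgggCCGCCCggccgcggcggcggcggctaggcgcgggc

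CCAAT is the core of the box bound by NF-Y, and GGGCGG is the GC box bound by Sp1, both known partners of SREBP. The Fasn window held 3 CCAAT matches and 0 GGGCGG matches. Its ATTGG began 90 bases before the start, and a CCAAT and an ATTGG that overlap each other began 62 and 59 bases before it. The Acly window held 4 GGGCGG matches and 1 CCAAT, the Acss2 window 5 and 1, and the printed Me1 window 4 and 0. Over the 14 windows listed for the 10 genes, 10 held CCAAT, against 37.4% of all 32851 mouse windows of the same length, and 7 held GGGCGG, against 35.7%. The E-box CACGTG, read by ChREBP and other factors, was in 1 of the 14 windows (Mlxipl), against 7.15% of all windows. The sterol element TCACNCCAC was also in 1 (Mlxipl, another start site), against 1.24%. A match describes the letters of the window only.

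Between any pair of arrays the correlation over probe sets lay between 0.988 and 0.997. Of the 8 brown adipocyte markers listed, some were bright in all 10 arrays and others were not. Ucp1, the uncoupling protein, lay between 13.96 and 14.19 log2 units in KO arrays and between 14.09 and 14.28 in WT arrays. Cidea lay between 14.17 and 14.23 in KO arrays and between 14.15 and 14.22 in WT arrays. Cox8b and Cox7a1 were at or above 12.78 in all arrays. The signals of Ucp1, Cidea and Cox8b lay close to the highest signal of any probe set on each array (14.51 to 14.65). How far these probe sets could still respond there was not tested, so their narrow ranges do not show a constant content of brown adipocytes. Over the 10 arrays Prdm16 lay between 7.46 and 8.31 and Ppargc1a between 8.15 and 9.22. Dio2 lay between 8.65 and 11.32 and Elovl3 between 9.4 and 11.6. RNA of other tissues was present too, and the mean of 14 skeletal muscle markers was 5.40, 11.33, 5.12, 11.22 and 10.17 in KO arrays 1 to 5, against 11.31, 11.67, 11.34, 9.68 and 7.62 in WT arrays 1 to 5. In bulk tissue, fewer cells of a type and less RNA per cell cannot be told apart. Sirt3 was not lower in the arrays labelled KO (10.32 log2 units in KO arrays and 10.13 in WT arrays, n = 5 each), so KO below means the label. Whether its probe set lies in the deleted part is not given, and it does not check the labels. The labels number the arrays within each genotype but do not state that each came from a separate mouse, so p-values measure the spread between these samples, which may in part be technical.

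None of the 10 lipogenic genes passed the test between KO and WT arrays. The mean was higher in KO arrays in 7 genes and lower in 3, where 43.9% of all genes were higher. By limma, 0 of the 10 had an adjusted p under 0.05 over all genes, and 0 had an unadjusted p under 0.05. Across all 18193 genes the shares were 0% and 4.68%. Groups overlapped in all 10 genes, while 0.627% of all genes had groups that did not overlap. The median KO minus WT difference was 0.11 log2 units over the 10 genes and -0.013 over all genes. It was -0.045 when WT 4 and WT 5 were both left out, 0.024 without WT 4, 0.019 without WT 5, 0.042 without KO 1, 0.074 without KO 3, 0.17 without KO 5 and 0.20 without WT 1. Leaving out the lowest WT arrays of a gene raises its WT mean. Smaller differences without WT 4 and WT 5, here and below, thus follow from that choice wherever these arrays were low. RMA sets every array to nearly the same distribution, so a shift shared by most genes would not show.

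**Figure D1:**
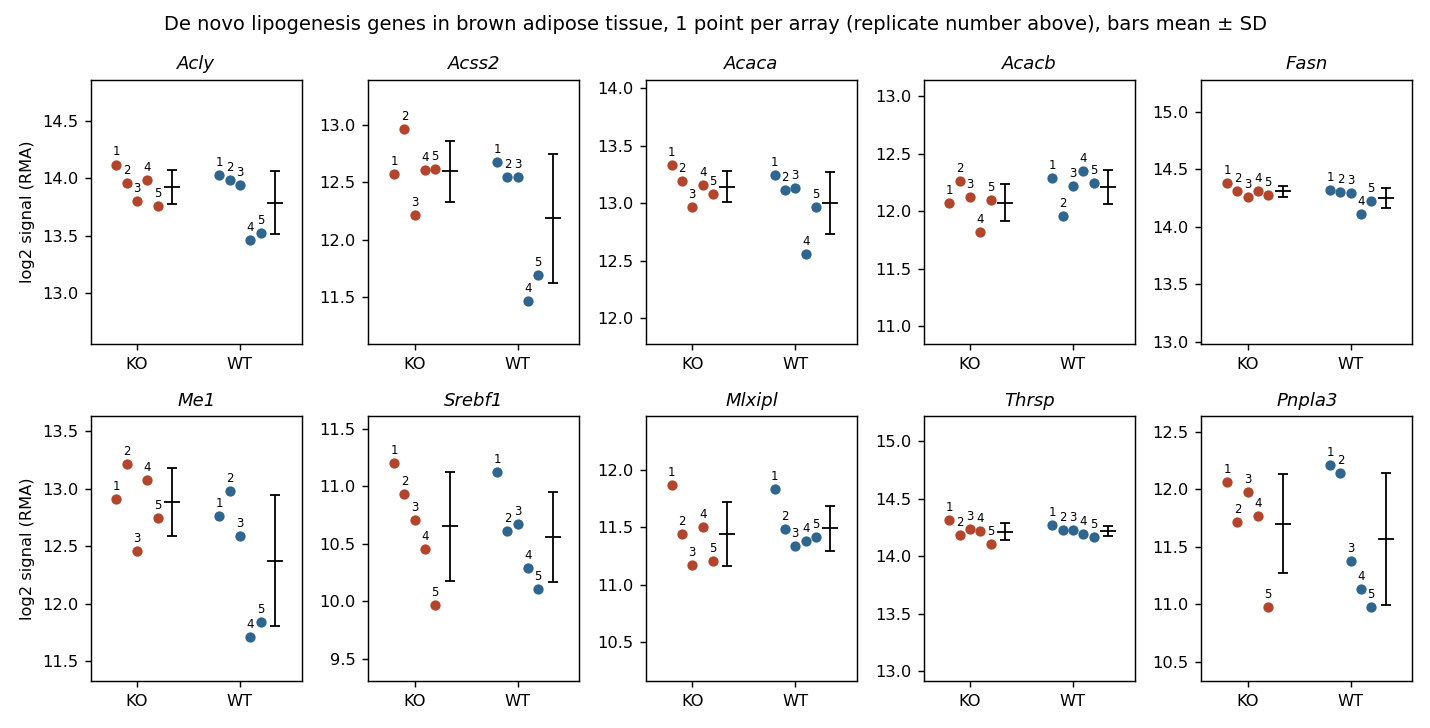
Log2 signal of the 10 genes (y axis, the same span in every panel) by group, with 1 point per array and its replicate number above it; bars give the mean ± SD of 5 arrays. WT 4 and WT 5 lie below the other arrays in Acly, Acss2 and Me1, and KO 5 lies lowest in Srebf1, Thrsp and Pnpla3.

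Of the enzymes that make acetyl-CoA, Acly (probe set 1451666_at) had log2 signals of 14.12, 13.96, 13.80, 13.99 and 13.76 in KO arrays 1 to 5, against 14.03, 13.98, 13.94, 13.47 and 13.53 in WT arrays 1 to 5. The groups overlapped, KO 1 was highest, and WT 4 and WT 5 lay 0.23 log2 units or more below every other array. The difference was 0.14 ± 0.12 log2 units (SE), a 1.10-fold ratio of KO to WT with a 95% confidence interval of 0.912 to 1.32. It was 0.055 without WT 4, 0.071 without WT 5 and 0.088 without KO 1, and without both WT 4 and WT 5 its sign turned (-0.059).

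Acss2, the cytosolic and nuclear acetyl-CoA synthetase, was read at 12.57, 12.96, 12.22, 12.60 and 12.62 in KO arrays 1 to 5, against 12.67, 12.55, 12.55, 11.47 and 11.70 in WT arrays 1 to 5. Again WT 4 and WT 5 stood apart, 0.52 log2 units or more below every other array, and WT 1 to 3 lay within the KO range. The difference was 0.41 ± 0.24 (SE), with an exact permutation p of 0.22 (n = 5 each) and a limma adjusted p of 0.914. It was 0.0042 when WT 4 and WT 5 were both left out and 0.23 without WT 4.

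Me1, the malic enzyme that supplies NADPH, showed the widest KO minus WT difference of the 10 genes. Its probe set 1430307_a_at gave 12.91, 13.21, 12.46, 13.07 and 12.75 in KO arrays 1 to 5, against 12.76, 12.98, 12.58, 11.71 and 11.84 in WT arrays 1 to 5. The same pair of WT arrays lay 0.62 log2 units or more below all others. KO arrays averaged 12.88 ± 0.29 and WT arrays 12.37 ± 0.57 (SD, n = 5 each). The ratio of KO to WT was 1.42-fold with an interval of 0.981 to 2.06, the exact permutation p was 0.14 (n = 5 each), and the adjusted p of limma was 0.914. The other Me1 probe set, 1416632_at, gave a difference of 0.46 ± 0.21. Without WT 4 and WT 5 the difference was 0.11, and it was 0.34 without WT 4.

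The carboxylases that make malonyl-CoA did not run in parallel. The brightest Acaca probe set, 1434185_at, gave 13.33, 13.19, 12.97, 13.16 and 13.08 in KO arrays 1 to 5, against 13.24, 13.11, 13.13, 12.56 and 12.97 in WT arrays 1 to 5. WT 4 alone lay clearly below the rest, and WT 5 was level with KO 3. The difference was 0.14 ± 0.12 (SE), and it was 0.032 without WT 4 and -0.016 without WT 4 and WT 5.

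The other Acaca probe set, 1427595_at, gave 10.85, 10.38, 10.17, 10.49 and 10.29 in KO arrays 1 to 5, against 9.83, 10.23, 10.16, 8.89 and 9.33 in WT arrays 1 to 5. Only KO 3 fell below the highest WT array, by a small margin. The difference was 0.75 ± 0.24 (SE), the exact permutation p was 0.016 (n = 5 each, unadjusted), and the limma adjusted p over all probe sets was 0.885. Among the 22 probe sets it was the only one with an unadjusted limma p under 0.05, or 4.55%, where 5.41% of all 34945 probe sets had one. After adjustment 0 of the 22 passed, against 0% of all probe sets. Without WT 4 and WT 5 its difference was 0.37.

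Acacb, the carboxylase of the outer mitochondrial membrane, ran the other way. It was read at 12.07, 12.26, 12.12, 11.82 and 12.10 in KO arrays 1 to 5, against 12.29, 11.96, 12.21, 12.35 and 12.25 in WT arrays 1 to 5. WT 4 was the highest of the 10 arrays, where it was the lowest for the 5 other enzymes. The difference was -0.14 ± 0.092 (SE), with an interval of -0.34 to 0.06, and it was -0.07 without KO 4 and -0.08 without WT 4 and WT 5.

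Fasn, which builds palmitate, was read at 14.38, 14.31, 14.26, 14.31 and 14.27 in KO arrays 1 to 5, against 14.32, 14.30, 14.29, 14.11 and 14.22 in WT arrays 1 to 5. All arrays lay within a 1.21-fold range, again with WT 4 lowest. The difference was 0.06 ± 0.055 (SE), and it was 0.023 without WT 4. It was 0.0017 when both WT 4 and WT 5 were left out. These signals lay close to the highest signal of any probe set on each array (14.51 to 14.65), and how far the probe set could still respond there was not tested.

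The order of arrays in the regulators differed in part from that of most of the enzymes. KO 5 was the lowest array for Srebf1, Thrsp and Pnpla3, and KO 3 for Mlxipl. For Srebf1 and Pnpla3, WT 5 and WT 4 came next above KO 5. Srebf1, which encodes SREBP1, was read at 11.20, 10.93, 10.71, 10.46 and 9.97 in KO arrays 1 to 5, against 11.13, 10.61, 10.67, 10.29 and 10.11 in WT arrays 1 to 5. KO 1 and WT 1 were highest and KO 5 lowest, so both groups spanned about the same range. The difference was 0.09 ± 0.24 (SE), and its sign turned without KO 1 (-0.047) or WT 5 (-0.022). The 1 probe set for Srebf1 is not stated to tell SREBP1a from SREBP1c.

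Mlxipl, which encodes ChREBP, was read at 11.86, 11.44, 11.17, 11.50 and 11.20 in KO arrays 1 to 5, against 11.83, 11.48, 11.33, 11.38 and 11.42 in WT arrays 1 to 5. KO 1 and WT 1 again stood above the other 8 arrays, and WT 4 and WT 5 were not low. The difference was -0.05 ± 0.13 (SE), and it was -0.16 without KO 1.

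Thrsp (1424737_at) varied least, at 14.32, 14.18, 14.24, 14.22 and 14.11 in KO arrays 1 to 5, against 14.27, 14.23, 14.23, 14.19 and 14.16 in WT arrays 1 to 5. The difference was -0.0039 ± 0.052 (SE), with an interval of -0.12 to 0.11. Its signals, like those of Fasn, lay near the top of the array range, and the other bright Thrsp probe set, 1422973_a_at, gave a difference of 0.0021.

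Pnpla3 had the highest SD within groups of the 10 genes, at 12.06, 11.72, 11.98, 11.77 and 10.98 in KO arrays 1 to 5, against 12.21, 12.14, 11.38, 11.13 and 10.98 in WT arrays 1 to 5. KO 5 and WT 5 were level at the bottom, a 2.36-fold range below WT 1 at the top. The difference was 0.13 ± 0.27 (SE), with an interval of -0.47 to 0.73, and with 1 array left out it lay between -0.014 (WT 5) and 0.31 (KO 5). Over the 10 genes the exact permutation p lay between 0.14 and 0.92 (n = 5 each), and the smallest this design allows is 0.0079.

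**Figure D2:**
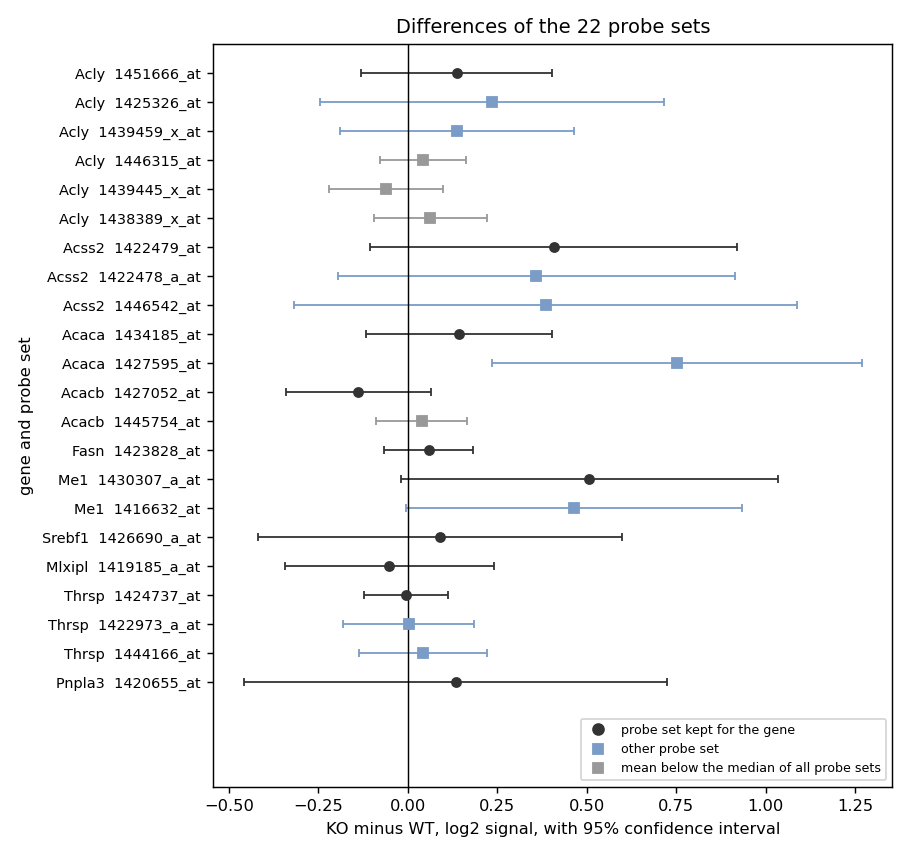
KO minus WT difference in log2 signal (x axis) with its 95% confidence interval for each of the 22 probe sets (y axis); circles are the probe sets kept for a gene, squares the others, and grey those with a mean below the median of all probe sets. The interval of Acaca 1427595_at (difference 0.75) is the only one that leaves out 0.

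The KO mean was higher in 18 of the 22 probe sets, where it was higher in 47.3% of all probe sets. Probe sets of 1 gene share its RNA and are not separate evidence. Of the 22, 4 had a mean below the median of all probe sets (5.601), 3 of them for Acly and 1 for Acacb, and their differences lay between -0.06 and 0.06. For Acss2 the 3 probe sets gave 0.41, 0.36 and 0.38, and the brighter 3 of Acly gave 0.14, 0.24 and 0.14. The sign differed between probe sets of Acly, Acacb and Thrsp, each time with a difference under 0.07 in size on at least one side. The range over the 10 arrays also differed within a gene: it was 0.77 log2 units for the Acaca probe set at a mean of 13.07 and 1.96 for the one at 10.06. For Thrsp it was 0.21 at a mean of 14.22 and 0.46 at 13.79.

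The lipogenic genes varied more between arrays of 1 group than most genes did. The pooled standard deviation within groups had a median of 0.23 log2 units over the 10 genes and 0.12 over all genes. It was at least 0.25 in 4 of the 10 genes, against 8.91% of all genes: Pnpla3 (0.51), Me1 (0.45), Acss2 (0.44) and Srebf1 (0.43). These 4 lay at the 97.2nd percentile of all genes or above. At the other end Fasn (0.071) and Thrsp (0.062) lay at the 9.5th and 5.5th percentile.

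For Acly, Acss2, Acaca, Fasn and Me1 the lowest arrays of the 10 were WT 4 and WT 5, both of them, while 6.91% of all genes had these arrays at the bottom. WT 4 and WT 5 were singled out with these values known, so this share is a description and no test. In Acaca the margin to KO 3 was under 0.001 log2 units. No lipogenic gene had WT 4 and WT 5 as its highest arrays, as 7.55% of all genes did. Among the marker lists, WT 4 and WT 5 were the highest arrays for 2 of 8 brown adipocyte markers (Ucp1 and Dio2), 1 of 4 hepatocyte markers (Cyp2e1), 1 of 5 white adipocyte markers (Retn), 2 of 6 macrophage markers and 0 of 6 endothelial markers. They were the lowest for 1 of 5 white adipocyte markers, the adipokine Lep. Of 5 general adipocyte markers, they were the lowest arrays for 1 (Lipe) and the highest for 1 (Adipoq). Of the 14 skeletal muscle markers, they were the lowest for 0 and the highest for 0. Dio2, the deiodinase that activates thyroid hormone in brown fat, was at most 9.95 in KO arrays and 9.74 in WT arrays 1 to 3, and was at 11.20 in WT 4 and 11.32 in WT 5. Lep lay between 8.01 and 10.23 in KO arrays and between 7.92 and 9.86 in WT arrays 1 to 3, and was at 6.34 in WT 4 and 5.75 in WT 5. The adipokine Retn ran the other way, between 7.65 and 8.83 in KO arrays, with 9.91 in WT 4 and 9.21 in WT 5. Cyp2e1 was at most 8.49 in KO arrays and reached 11.53 in WT 4 and 10.13 in WT 5, while Alb, the defining hepatocyte marker, was at or below 4.59 in all 10 arrays. The muscle marker mean was 9.68 in WT 4 and 7.62 in WT 5, but it was lower still in KO 1 and KO 3. The mean of the 6 enzymes was 13.23 in KO 1 and 12.97 in KO 3, the lowest KO array, against 12.61 in WT 4 and 12.75 in WT 5. With the muscle marker mean as a covariate, Me1 differed by 0.70 and Acss2 by 0.59, with adjusted p by limma of 0.574 and 0.587. Whether any of these features plays a part in the low values of WT 4 and WT 5 was not tested.

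**Figure D3:**
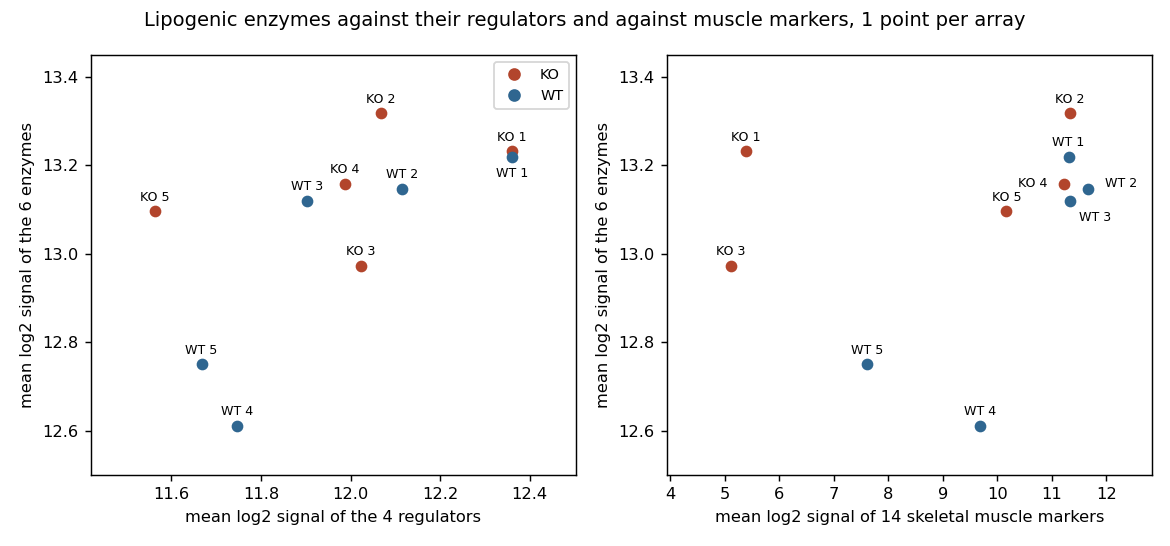
Mean log2 signal of the 6 enzymes (y axis of both panels) against that of the 4 regulators (left) and of 14 skeletal muscle markers (right), 1 point per array, KO red and WT blue. WT 4 and WT 5 lie lowest on the y axis. Of KO 1 and KO 3, the arrays poorest in muscle markers, KO 3 comes next above WT 5 and KO 1 lies near the top.

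Across the 10 arrays the genes tended to vary together, with a median Pearson r of 0.58 over the 45 pairs and 37 pairs above 0. After Benjamini and Hochberg adjustment over the 45 pairs, 16 passed by Pearson's r and 19 by Spearman's rho in permutation tests, and all 16 were positive. With deviations from the group means in place of the values, 17 passed. When the 2 arrays farthest from the median of the first gene of a pair were left out, the median r was 0.45 and 2 pairs passed with the 8 arrays that remained.

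**Figure D4:**
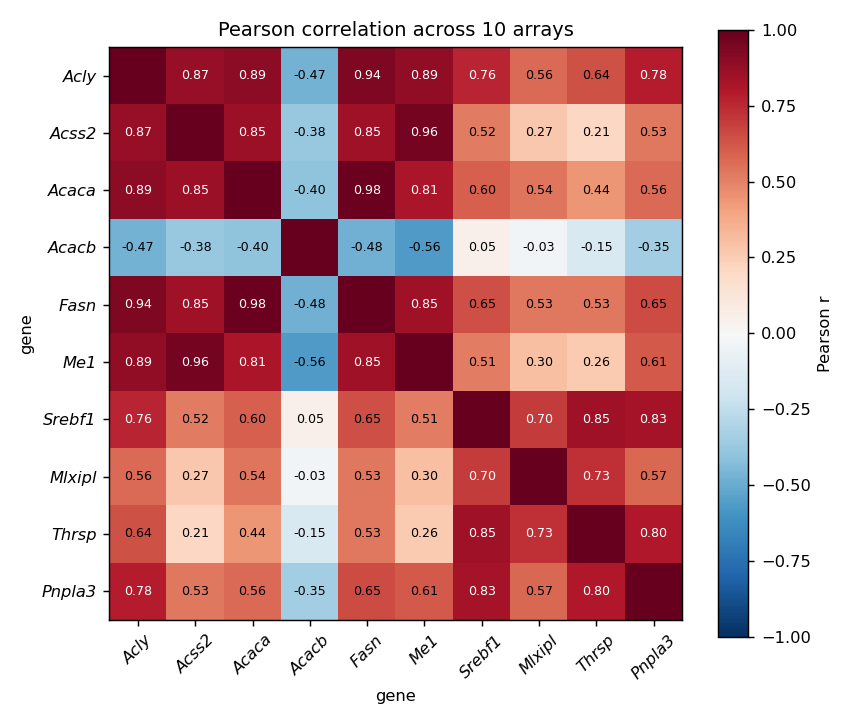
Pearson correlation across 10 arrays for each pair of genes, coloured from -1 (blue) to 1 (red), with the value printed in each cell. Acaca and Fasn form the closest pair at 0.98, and the row of Acacb is at or below 0.05 throughout.

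The closest pair was Acaca with Fasn, the enzymes of consecutive steps, at r = 0.98 and rho = 0.99 (permutation p = 1e-05 for r, the smallest that 100000 permutations can give, and 2e-05 for rho; adjusted 0.000225 for r). It held at r = 0.92 without KO 1 and WT 4. Acly with Fasn gave r = 0.94 and rho = 0.95 (permutation p = 1e-05 and 0.00016), and r = 0.91 without WT 4 and WT 5. Acss2 with Me1 gave r = 0.96 and rho = 0.76 (permutation p = 0.00012 and 0.015), and 0.77 without WT 4 and WT 5. Acly with Acss2 rested on those arrays, since its r of 0.87 (permutation p = 0.0039, rho 0.59 with p = 0.080) was 0.34 without them. Acly with Me1 likewise was at 0.47 without them, with r = 0.89 and rho = 0.75 over all arrays (permutation p = 0.0024 and 0.018).

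Among the regulators, Srebf1 with Thrsp gave r = 0.85 and rho = 0.82 (permutation p = 0.0016 and 0.0059), and Srebf1 with Pnpla3 gave r = 0.83 and rho = 0.77 (permutation p = 0.0039 and 0.012). Without KO 1 and KO 5 these were 0.67 and 0.76. Between Srebf1 and the enzymes, Acly passed by both measures (r = 0.76, rho = 0.75, permutation p = 0.011 and 0.017, adjusted 0.032 and 0.044), with r = 0.77 without WT 4 and WT 5. Acaca (r = 0.60, rho = 0.77) and Fasn (r = 0.65, rho = 0.76) passed with Srebf1 by rho only (adjusted permutation p = 0.042 each). The correlation of Srebf1 with Acss2 (r = 0.52, rho = 0.39, permutation p = 0.12 and 0.26) or Me1 (r = 0.51, rho = 0.42, permutation p = 0.13 and 0.23) did not pass, and without WT 4 and WT 5 the r values were 0.17 and 0.13. Mlxipl with Acly gave r = 0.56 over all arrays (rho = 0.81, permutation p = 0.082 and 0.0070) and r = 0.91 without WT 4 and WT 5. Like Srebf1, Mlxipl passed by rho only with Acaca (r = 0.54, rho = 0.73) and Fasn (r = 0.53, rho = 0.78), and so it did with Acly. The adjusted permutation p for rho was 0.049, 0.042 and 0.040. Without WT 4 and WT 5, r with Acaca and Fasn was 0.91 and 0.90 for Mlxipl, and 0.64 and 0.69 for Srebf1. Acacb had a negative r with 8 of the other 9 genes, from -0.56 (Me1) to -0.027 (Mlxipl), and none of these passed. This pattern rested largely on WT 4 and WT 5: without them r lay between -0.29 (Me1) and 0.41 (Srebf1). With the scaled mean of the other genes, the r of Acacb was -0.37 over all arrays and 0.080 without WT 4 and WT 5. These correlations describe 10 arrays that also share their normalization.

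Other genes of the pathway were read from lists of 48 measured genes. By limma, 0 of the 48 passed over all genes, against 0% of all genes. An unadjusted limma p under 0.05 was found for 3, or 6.25%, near the 4.68% of all genes. In KO arrays 23 were higher and 25 lower, with a median of -0.015, where 43.9% of all genes were higher. WT 4 and WT 5 were the lowest arrays for 7 of the 48 and the highest for 7, against 6.91% and 7.55% of all genes. G6pdx and Nr1h2 were not analysed here.

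Genes that feed the pathway with citrate and NADPH were higher in KO arrays in 6 of 8, with a median of 0.05 and 0 past the test. Slc25a1, the citrate carrier, was read at 12.42, 12.09, 11.71, 12.14 and 11.63 in KO arrays 1 to 5, against 12.07, 11.93, 11.97, 11.35 and 11.53 in WT arrays 1 to 5. Its lowest arrays were WT 4 and WT 5, as for Acly, and the difference was 0.23 ± 0.17 (SE). Taldo1, an enzyme of the pentose phosphate pathway, differed by 0.10 ± 0.067.

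**Figure D5:**
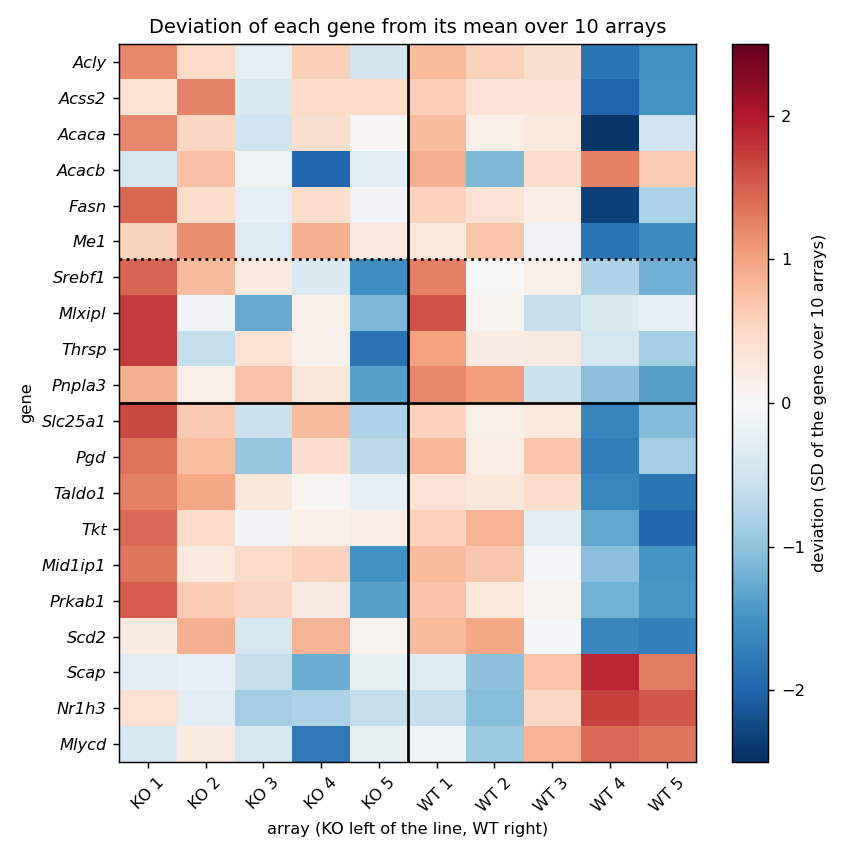
Deviation of each gene (rows) from its own mean over 10 arrays, in SD of that gene, for KO arrays (left of the line) and WT arrays (right). The top block holds the 6 enzymes and, below the dotted line, the 4 regulators; the lower block holds other pathway genes. The pathway rows were selected, some for their likeness to the enzymes, and WT 4 and WT 5 are high for Acacb, Scap, Nr1h3 and Mlycd and low for most other rows shown.

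The genes that control SREBP processing were lower in KO arrays in 6 of 6, with a median of -0.09 and 0 past the test. Scap, the escort protein of SREBP, differed by -0.12 ± 0.067, the site-2 protease Mbtps2 by -0.13 ± 0.081, and Insig1, which holds Scap back in the endoplasmic reticulum, by -0.11 ± 0.093 (log2 units ± SE). Scap was read at 9.05, 9.06, 9.02, 8.94 and 9.06 in KO arrays 1 to 5, against 9.05, 8.97, 9.17, 9.30 and 9.24 in WT arrays 1 to 5. Its highest arrays were WT 4 and WT 5, the reverse of most of the enzymes.

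Partners of ChREBP and the liver X receptor were lower in KO arrays in 5 of 7, with 0 past the test. Rxra, the shared partner of nuclear receptors, differed by -0.22 ± 0.074 with an unadjusted limma p of 0.013 and an adjusted p of 0.914, and its other probe sets gave -0.04 and 0.06. Nr1h3, liver X receptor alpha, which induces Srebf1 in liver, differed by -0.16 ± 0.11, with KO arrays between 8.77 and 9.01 and WT 4 (9.27) and WT 5 (9.23) highest. Mlx, the binding partner of ChREBP, differed by -0.06 ± 0.12.

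Genes that control the carboxylases lay around 0, with 6 of 10 higher in KO arrays, a median of 0.018 and 0 past the test. Mlycd, which destroys malonyl-CoA, differed by -0.22 ± 0.11, with WT 4 (9.73) and WT 5 (9.71) highest. Prkab1, a subunit of the AMP-activated kinase that inhibits the carboxylases, differed by 0.28 ± 0.24. Mid1ip1, a relative of Thrsp that promotes polymerization of the carboxylases, differed by 0.23 ± 0.29 and was low in KO 5 (8.51), WT 5 (8.52) and WT 4 (8.74).

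Genes acting on the product were higher in 3 of 4, with 0 past the test. Scd2, a desaturase, differed by 0.51 ± 0.42, with KO arrays between 10.85 and 11.91 and WT 4 (9.89) and WT 5 (9.84) below them. Scd1, another desaturase, differed by 0.07 ± 0.061 on a probe set that lay at the top of the array range (it gave the highest signals of KO 3, 14.51, and KO 5, 14.65), and its less bright probe set gave 0.35. The elongase Elovl6 differed by -0.09 ± 0.092, and the probe sets of Elovl6 disagreed in sign (-0.09, 0.03 and -0.46). Fatty acid synthesis inside mitochondria, a separate pathway, had 3 of 7 genes higher and 0 past the test, with Mcat, its malonyl transferase, at -0.23 ± 0.090 and Mecr, its reductase, at 0.13 ± 0.078. Among relatives of the 10 genes, 5 of 9 were higher and 0 passed. Acss1, the mitochondrial acetyl-CoA synthetase and a known SIRT3 substrate, differed by -0.18 ± 0.073, and WT 4 (11.29) and WT 5 (11.31) were its highest arrays, whereas its cytosolic counterpart Acss2 was lowest there. The lipase-family gene Pnpla5 differed by 0.09 ± 0.075 at a mean signal of 4.75, below the median of all probe sets.

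To describe the shared pattern, each of the 10 genes was scaled to mean 0 and SD 1 over the arrays and the 10 were averaged. This mean was 1.02, 0.49, -0.17, 0.10 and -0.59 in KO arrays 1 to 5, against 0.90, 0.24, 0.08, -1.17 and -0.88 in WT arrays 1 to 5. KO 1 and WT 1 were highest and WT 4 and WT 5 lowest. Of the 10 genes, 7 had r of at least 0.7 with the mean of the other 9, where 4.12% of the other genes had such an r with the mean of all 10.

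The genes outside the set with the pattern most like it, by Pearson r over the 10 arrays, were Slc38a10 (0.98), Mtarc1 (0.97), Chsy1 (0.97), Ank (0.96), Slc2a5 (0.96) and Rspo4 (0.95). Spearman's rho lay between 0.92 and 0.96, and without WT 4 and WT 5 r lay between 0.91 and 0.98. Slc2a5 is the fructose transporter GLUT5, Slc38a10 belongs to a family of amino acid transporters, and Ank exports pyrophosphate. Slc2a5 was read at 10.03 in KO 1 and 7.94 in WT 4, its highest and lowest arrays. Of the pathway genes, Slc25a1 (r = 0.94), Prkab1 (0.92), Taldo1 (0.89) and Mid1ip1 (0.88) were also close to the pattern, while Scap (-0.64), Acss1 (-0.63) and Nr1h3 (-0.53) ran against it. Without WT 4 and WT 5 the first 4 gave r of 0.87, 0.86, 0.78 and 0.81, and the last 3 gave 0.019, 0.073 and 0.36.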

How the data were processed

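The deposited values are log2 signals, 1 column per array, made by the authors with RMA per the submitters' processing notes, with no version named there. Per the labels, 6 ug of total RNA went into each array. RMA makes no detection calls, and the number of arrays limits the precision. Of 45101 probe sets, 34945 had 1 gene in the platform annotation, and names were updated by gene ID through RefSeq (GRCm38.p6). Each of 18193 genes was represented by its probe set of highest mean signal.

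KO minus WT was fitted with limma 3.58.1 in R 4.3.3, two-sided, at gene level and at probe set level, with Benjamini and Hochberg adjustment over all features. Single values were compared by exact permutation over 252 splits, and correlations by 100000 permutations, in Python 3.11.15. The fit was tested on simulated data.

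The members and lists, and the choice to leave out WT 4 and WT 5, were made with earlier results of these data known. Named genes are the 10 members; the 2 with the smallest p of each pathway list; Scd1, Elovl6, Insig1, Nr1h3, Mlx, Mid1ip1 and Slc25a1; and the 6 most alike. Dio2, Lep, Retn, Cyp2e1 and, in the heat map, Pgd and Tkt were chosen after their values were seen. The labels do not say whether replicate numbers pair mice across groups, and the main fit used no pairing. Over all genes, deviations of same-numbered arrays correlated between -0.40 and 0.24, which does not settle it. With the replicate block the SE fell from 0.24 to 0.076 for Srebf1, 0.13 to 0.068 for Mlxipl and 0.27 to 0.16 for Pnpla3. It fell less for Acly, Acss2, Acaca and Me1, and rose for Acacb (0.092 to 0.11), Fasn (0.055 to 0.059) and Thrsp (0.052 to 0.053).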

Additional observations from a re-analysis of the deposited data

How the results depend on the processing

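No gene passed the limma test under any of the 20 alternatives (another quantile normalization, centring, a filter on dim genes, another variance model, array weights, other probe set choices, the replicate block, a muscle covariate, each array left out in turn, and WT 4 and WT 5 left out together). Genes with an unadjusted p under 0.05 numbered 851 of 18193 as reported and 581 to 1475 under these. The 581 were among only 11660 genes, those left by the filter on dim genes, so that count is not comparable with 851. Where all 18193 genes were kept, the lowest count was 611 (without KO 4) and the highest 1475 (muscle covariate). The smallest adjusted p of any of the 10 genes was 0.574. The sign of Acacb and Me1 was the same under all 20; that of Acss2 and Fasn was too, but without WT 4 and WT 5 their differences were close to 0 (0.0042 and 0.0017). Without WT 4 and WT 5 the median difference was -0.045 and the signs turned for Acly (-0.059), Acaca (-0.016), Srebf1 (-0.15) and Pnpla3 (-0.21). Both arrays lay below the other WT arrays in these genes, so a lower difference without them was built into the choice. With each array left out in turn, the median lay between 0.019 and 0.20, Srebf1 between -0.047 and 0.26, Mlxipl between -0.16 and 0.034, Thrsp between -0.030 and 0.022 and Pnpla3 between -0.014 and 0.31. When a gene's probe sets were averaged, Thrsp was at 0.013 and Acaca at 0.45. The 16 correlated pairs became 2 when the farthest 2 arrays were left out, which leaves 8 arrays. With the replicate block 0 of the 10 genes were called, and 736 genes had an unadjusted p under 0.05.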
